A study of Mus musculus with 10 samples.

Results

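The genes described here are 10 that thyroid hormone is known to raise in brain or cultured neural cells, namely Hr, Klf9, Nrgn, Sema7a, Rasd2, Stac2, Cbr2, Itga7, Shh and Camk4. They were taken by name from a table of 52636 genes, and all 10 were found and passed the filter on low values (a mean of at least 0.5 FPKM, fragments scaled for gene length and library depth, over all libraries). The table holds messenger RNA of the hippocampus of C57BL/6 mice aged 3 months, with 5 libraries from Tshr-/- mice and 5 from wild-type mice. In Tshr-/- mice the receptor for thyrotropin, the pituitary signal to the thyroid gland, is disrupted. The study concerned spatial learning and memory. The series text calls the libraries biological replicates and gives no treatment. Whether the mutants received thyroid hormone, whether each library is 1 mouse and which part of Tshr was deleted are not stated there or in the labels.

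Thyroxine from the thyroid is turned into the active hormone triiodothyronine in brain, largely by the astrocyte deiodinase Dio2, and membrane transporters carry the hormones into cells. Inside the nucleus the hormone binds the receptors Thra and Thrb, which sit on DNA with a retinoid X receptor partner. Without hormone these receptors hold many targets down through corepressors, and with hormone they recruit coactivators. Hr and Klf9 are direct targets often read as gauges of hormone action in brain, and Nrgn is a neuronal target known from hypothyroid animals.

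Libraries held from 23899650 to 33529811 reads, rebuilt from FPKM and gene length. Tshr had 0, 0, 0, 5 and 2 reads in Tshr-/- libraries 1 to 5 and 9, 12, 7, 2 and 2 in wild-type libraries 1 to 5, too few to check the labels firmly. Slc17a7, a transporter of excitatory hippocampal neurons, stood at 254 to 466 FPKM in every library. The summed level of 12 markers of thalamus and habenula, which lie next to the hippocampus, was 162 and 270 FPKM in Tshr-/- libraries 1 and 2 and 96.4 and 140 FPKM in wild-type libraries 2 and 5. In the 6 other libraries it lay between 26.7 and 61.8 FPKM. Choroid plexus markers summed to 2620 FPKM in Tshr-/- library 4 and to 33.8 to 138 FPKM elsewhere. The 11 dentate granule neuron markers summed to 85.4 to 130 FPKM in Tshr-/- and 137 to 187 FPKM in wild type. The 8 markers of CA1 pyramidal neurons summed to 141, 125 and 128 FPKM in Tshr-/- libraries 1, 2 and 4, to 207 and 199.5 in libraries 3 and 5, and to 182 to 251.6 in wild type. Of these 8, 7 stood lower in Tshr-/-, 4 at an unadjusted p below 0.05 and 0 called, with a median log2 difference of -0.48. The part of the CA1 markers in the differences described here was not tested. Of the 11 dentate markers, 7 stood lower at an unadjusted p below 0.05, with a median of -0.31 over the list. In 3 of them every Tshr-/- library lay below every wild-type library. Over all genes tested these shares were 8.38% and 1.76%. All 12 thalamic genes, all 9 tested meningeal genes and 0 of the 11 dentate genes stood higher in Tshr-/-, with 0 called in each list, and no marker was at 0 in every library. In such bulk tissue, fewer cells of a type and less RNA per cell cannot be told apart.

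Promoter windows from RefSeq (build GRCm38.p6) were found for 5 of the 10 genes, Cbr2, Klf9, Nrgn, Rasd2 and Sema7a. Shown here are the 250 bases before the start of the 2 genes with the smallest p among those lower in Tshr-/-, 5′ to 3′ on the gene's own strand. Capitals mark GGTCA, the core of the half-site that thyroid hormone receptors bind, or its complement. The Sema7a window is chr9:57939862-57940111 and the Rasd2 window chr8:75213694-75213943, both on the plus strand.
Sema7a: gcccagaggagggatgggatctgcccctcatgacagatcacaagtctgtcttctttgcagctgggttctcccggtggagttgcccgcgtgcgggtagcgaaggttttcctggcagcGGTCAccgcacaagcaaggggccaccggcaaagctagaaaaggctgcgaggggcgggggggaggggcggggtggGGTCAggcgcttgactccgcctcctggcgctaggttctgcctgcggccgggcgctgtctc
Rasd2: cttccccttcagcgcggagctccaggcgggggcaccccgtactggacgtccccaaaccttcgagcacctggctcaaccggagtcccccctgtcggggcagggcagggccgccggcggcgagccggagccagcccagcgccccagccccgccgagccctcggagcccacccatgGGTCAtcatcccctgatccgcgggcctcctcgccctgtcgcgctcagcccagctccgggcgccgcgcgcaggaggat
The Sema7a window holds 2 cores, and those of Rasd2 and Cbr2 hold 1 each. RefSeq and the deposited table place some starts differently, so 93 bases of the Cbr2 window, its core among them, and 159 of the Nrgn window lie inside the gene as deposited. Over both strands, 35.2% of 32851 windows of the same length hold GGTCA, which is itself part of the longer motifs. The full half-site AGGTCA is in 14% of windows and in 0 of the 5 windows of these genes. Direct repeats of AGGTCA spaced by 4 bases, the arrangement best known for these receptors, are in 0.0152% of windows and in 0 of the 5. These matches describe letters in a short window, and the transcript data do not test binding there.

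None of the 10 genes passed the test between genotypes. The test was limma on log2(FPKM + 0.1), with p-values adjusted by the Benjamini-Hochberg method over the 15471 genes tested, and genes with an adjusted p under 0.05 count as called. Limma called 0 of the 10, and limma voom on rebuilt reads also called 0. Of all genes tested limma called 0.0129%. At an unadjusted p below 0.05, 3 of the 10 stood lower in Tshr-/- (Sema7a, Rasd2 and Itga7) and 1 stood higher (Cbr2). The corresponding shares of all genes tested were 8.38% and 4.65%. Of the 10 log2 differences, 6 were below 0 and 4 above, with a median of -0.14 against -0.01 over all genes tested.

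**Figure D1:**
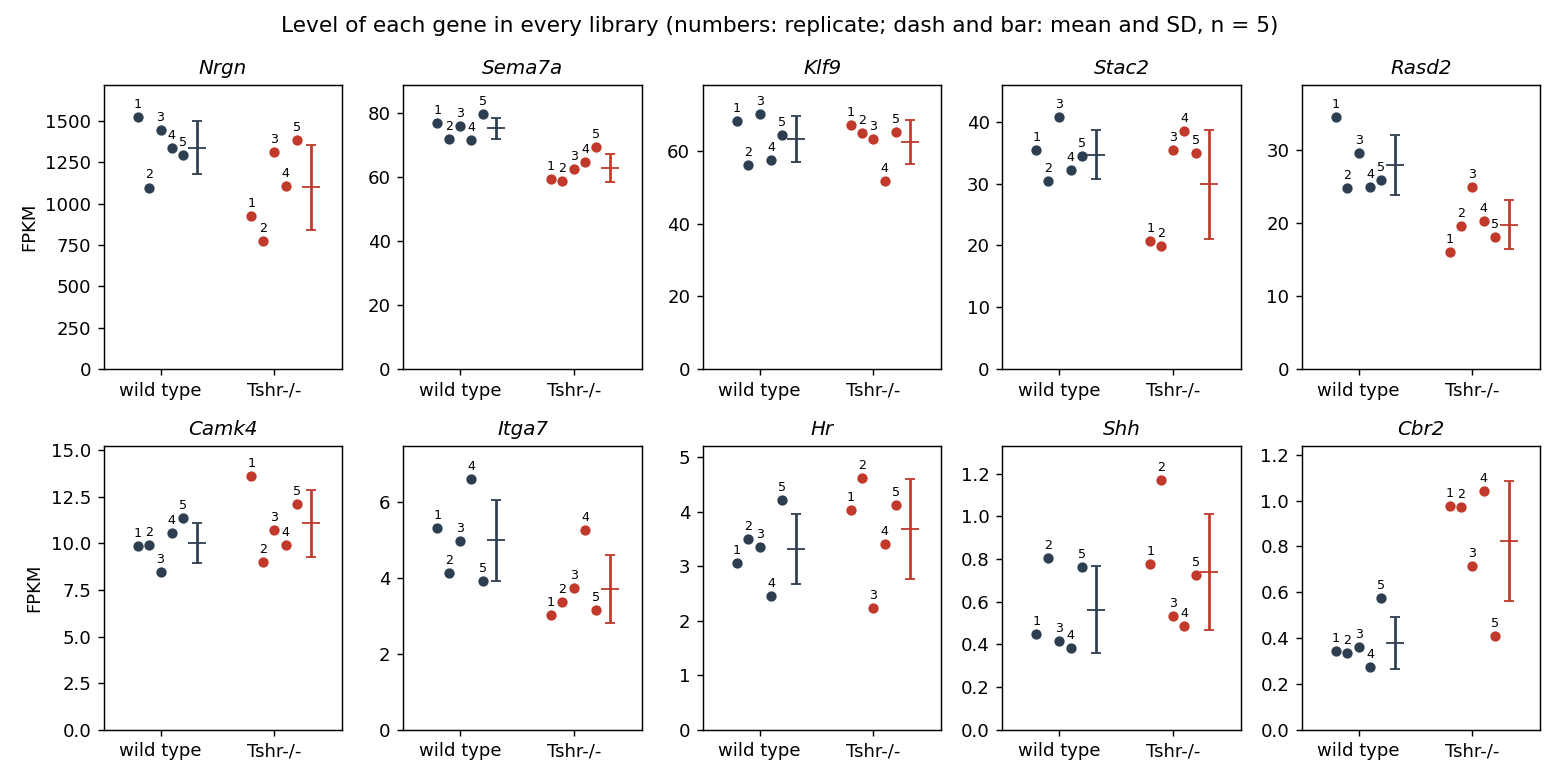
FPKM (vertical axis, from 0) of the 10 genes in each wild-type and Tshr-/- library, with 1 point per library, its replicate number, and the mean and SD of the 5 libraries beside them. Sema7a alone has every Tshr-/- library below every wild-type library, and Stac2 has its 2 lowest values in Tshr-/- libraries 1 and 2.

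Levels per gene length spanned a wide range. In wild type the order of mean FPKM was Nrgn (1340), Sema7a (75.2), Klf9 (63.2), Stac2 (34.7), Rasd2 (28.0), Camk4 (10.03), Itga7 (4.995), Hr (3.31), Shh (0.562) and Cbr2 (0.378). Neighbours in this order whose wild-type libraries overlapped were Stac2 with Rasd2, Itga7 with Hr, and Shh with Cbr2. The other neighbours did not overlap. Nrgn lay above 99.9% of the genes tested in mean level, while Cbr2 and Shh lay above 3.7% and 5.2%.

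Nuclear regulators come first. Hr (ENSMUSG00000022096, chromosome 14, 70552212 to 70573548, plus strand, mm10) encodes hairless, a corepressor that binds thyroid hormone receptors. It had 4.03, 4.62, 2.23, 3.41 and 4.13 FPKM in Tshr-/- libraries 1 to 5 and 3.06, 3.50, 3.34, 2.45 and 4.21 in wild-type libraries 1 to 5. Both the highest and the lowest of the 10 values were in Tshr-/-, and the groups overlapped. The means were 3.68 ± 0.920 and 3.31 ± 0.645 FPKM (SD, n = 5 each, as for all means here), and the fitted log2 difference was 0.13 ± 0.19 (SE, limma adjusted p = 0.812). The 95% interval ran from -0.295 to 0.553, which spans folds from 0.815 to 1.47. Without Tshr-/- libraries 1 and 2 the log2 difference was -0.05.

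Klf9 (ENSMUSG00000033863, chromosome 19, 23141226 to 23166911, plus strand) encodes a zinc finger factor that carries hormone signals into neuron maturation. Its Tshr-/- libraries 1 to 5 had 67.1, 65.0, 63.3, 51.8 and 65.1 FPKM, and its wild-type libraries 68.2, 56.0, 70.1, 57.6 and 64.3. Tshr-/- library 4, the one rich in choroid plexus transcripts, was the lowest of all, and the other 9 values lay between 56.0 and 70.1. The means of 62.5 ± 6.12 and 63.2 ± 6.27 FPKM corresponded to a fitted log2 value of -0.02 ± 0.09 (SE, limma adjusted p = 0.949). This was the smallest difference of the 10, with a 95% interval from -0.21 to 0.17 or folds from 0.864 to 1.13. Without Tshr-/- library 4 the log2 difference was 0.05.

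Genes of the neuronal calcium and membrane machinery come next. Sema7a (ENSMUSG00000038264, chromosome 9, 57940112 to 57962865, plus strand) encodes a membrane-anchored semaphorin that promotes axon growth through integrins. It had 59.4, 58.7, 62.5, 64.6 and 69.4 FPKM in Tshr-/- libraries 1 to 5 and 76.9, 72.0, 75.9, 71.6 and 79.7 in wild type. Every Tshr-/- library lay below every wild-type library. Groups did not overlap for this 1 of the 10 genes and for 2.68% of all genes tested, or 1.76% in this direction. The means were 62.9 ± 4.32 and 75.2 ± 3.43 FPKM, and the log2 difference was -0.26 ± 0.06 (SE), with an unadjusted p of 0.00088 and a limma adjusted p of 0.148. Sema7a had the smallest p of the 10, rank 91 of the 15471. Its log2 difference was -0.20 without Tshr-/- libraries 1 and 2 and -0.24 with the thalamus markers as a covariate.

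Plxnc1, the plexin receptor of Sema7a, stood the other way, at 7.16 ± 1.03 FPKM in Tshr-/- and 5.27 ± 0.322 in wild type (log2 difference 0.42 ± 0.10 SE, limma adjusted p = 0.162). Its Tshr-/- libraries 1 to 5 had 7.98, 8.05, 7.05, 5.50 and 7.21 FPKM, so that 4 of the 5 lay above the highest wild-type value of 5.68. Itgb1, the integrin chain that Sema7a also signals through, had 13.3 ± 1.14 against 12.2 ± 1.63 FPKM and was chosen after its values were seen.

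Rasd2 (ENSMUSG00000034472, chromosome 8, 75213944 to 75224113, plus strand) encodes Rhes, a small GTPase best known in striatum. It had 16.0, 19.6, 24.96, 20.4 and 18.2 FPKM in Tshr-/- libraries 1 to 5 and 34.5, 24.89, 29.7, 24.92 and 25.9 in wild type. Of the 5 Tshr-/- libraries, 4 lay below all wild-type ones, and library 3 just overlapped wild-type libraries 2 and 4. The means were 19.8 ± 3.32 and 28.0 ± 4.15 FPKM, and the log2 difference was -0.50 ± 0.12 (SE), with an unadjusted p of 0.00207 and a limma adjusted p of 0.179. Rasd2 had the lowest fitted fold of the 10, 0.708 and a 95% interval from 0.585 to 0.855.

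Markers of striatal projection neurons, where Rasd2 is abundant, overlapped between genotypes. Of 8 genes, 6 stood higher in Tshr-/-, and their sum was 40.8 to 63.3 FPKM in Tshr-/- and 39.6 to 58.4 in the controls. Dentate granule neuron markers stood lower in Tshr-/-, by the sums given above (11 of 11 genes, 0 called). With their mean as a covariate, added after the data were seen, the Rasd2 log2 difference was -0.21 (limma adjusted p = 0.726). The mean used as covariate overlapped between genotypes only through Tshr-/- library 4 (0.14 on a relative log2 scale) against wild-type libraries 2 and 5 (0.11 and 0.03). This covariate and genotype can thus hardly be told apart. The part of striatal or dentate content in the Rasd2 values was not tested. With the same covariate the log2 differences of Hr, Stac2, Itga7, Shh and Camk4 turned to -0.37, 0.18, 0.115, -0.34 and -0.04. Sema7a and Nrgn kept theirs below 0. Without Tshr-/- libraries 1 and 2, Rasd2 differed by -0.40, and without all 4 thalamus-rich libraries by -0.49.

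Nrgn (ENSMUSG00000053310, chromosome 9, 37544492 to 37552904, minus strand) encodes neurogranin, a postsynaptic protein that holds calmodulin until calcium rises. It had 927, 772, 1310, 1108 and 1385 FPKM in Tshr-/- libraries 1 to 5 and 1525, 1098, 1444, 1338 and 1294 in wild type. Tshr-/- libraries 1 and 2 were the lowest of all 10, and the other 3 Tshr-/- values lay inside the wild-type range. The means were 1100 ± 257 and 1340 ± 163 FPKM, and the log2 difference was -0.31 ± 0.16 (SE, limma adjusted p = 0.438). The difference was -0.08 without Tshr-/- libraries 1 and 2, -0.18 without the 4 thalamus-rich libraries and -0.17 with the thalamus markers as a covariate.

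Stac2 (ENSMUSG00000017400, chromosome 11, 98036623 to 98053462, minus strand) encodes an adaptor that binds voltage-gated calcium channels. It had 20.7, 19.9, 35.4, 38.5 and 35.0 FPKM in Tshr-/- libraries 1 to 5 and 35.4, 30.4, 40.8, 32.2 and 34.6 in wild type. Only Tshr-/- libraries 1 and 2 stood apart, and the other 8 lay between 30.4 and 40.8. The log2 difference of -0.26 ± 0.19 (SE, limma adjusted p = 0.581) became 0.07 without those 2 libraries and 0.01 without the 4 thalamus-rich ones. Thalamic marker levels were highest in the same 2 libraries, at 162 and 270 FPKM. Wild-type libraries 2 and 5, at 96.4 and 140 FPKM of these markers, had 30.4 and 34.6 FPKM of Stac2. The part of thalamic tissue in the low Stac2 values was not tested.

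Stac, the close relative of Stac2, had 1.35, 1.68, 2.53, 1.82 and 1.80 FPKM in Tshr-/- libraries 1 to 5 and 3.49, 2.45, 3.46, 2.80 and 2.66 in wild type. Here 4 of the 5 Tshr-/- libraries lay below all wild-type ones (log2 difference -0.68 ± 0.16 SE, limma adjusted p = 0.159). Unlike Stac2, its low values were not limited to Tshr-/- libraries 1 and 2.

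Camk4 (ENSMUSG00000038128, chromosome 18) encodes a nuclear calmodulin-dependent kinase that phosphorylates CREB. It had 13.6, 9.01, 10.7, 9.92 and 12.1 FPKM in Tshr-/- libraries 1 to 5 and 9.88, 9.90, 8.46, 10.6 and 11.3 in wild type. The groups overlapped, with Tshr-/- libraries 1 and 5 above every wild-type library and the other 3 within their range. Means of 11.1 ± 1.81 and 10.03 ± 1.07 FPKM corresponded to a fitted log2 value of 0.13 ± 0.11 (SE, limma adjusted p = 0.645).

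**Figure D2:**
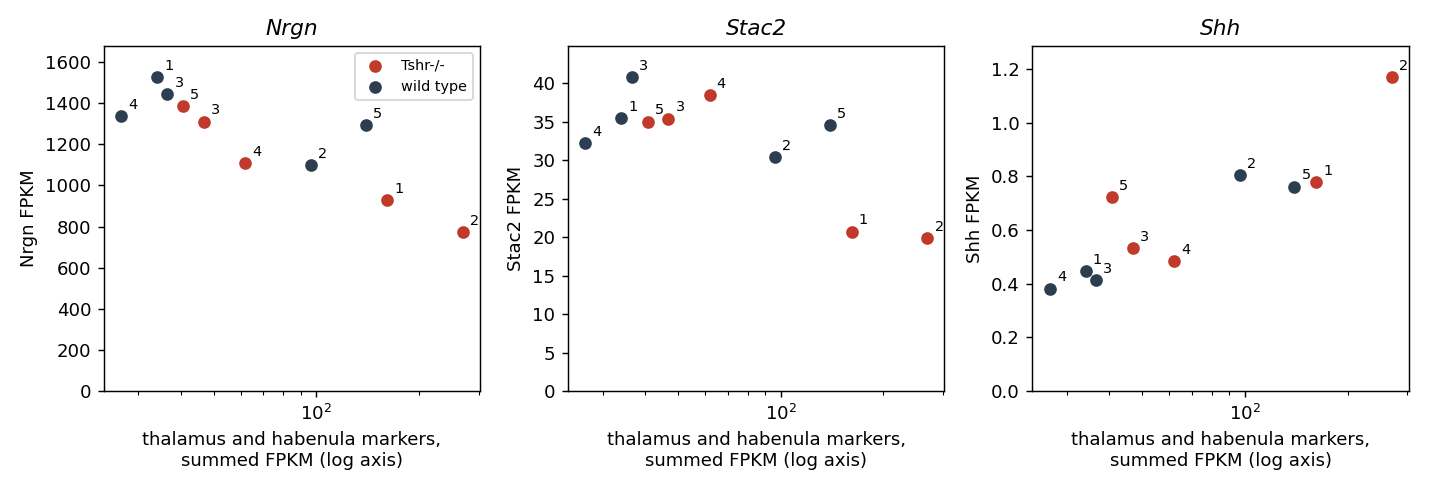
FPKM of Nrgn, Stac2 and Shh (vertical axes, from 0) against the summed FPKM of 12 thalamus and habenula markers (horizontal log axis), with 1 numbered point per library in each genotype. Tshr-/- libraries 1 and 2, at 162 and 270 FPKM of these markers, hold the lowest Nrgn and Stac2 values, and library 2 the highest Shh.

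Shh (ENSMUSG00000002633, chromosome 5, 28456815 to 28467256, minus strand) encodes the secreted morphogen Sonic hedgehog. It rested on 27 to 98 reads per library, or 0.778, 1.17, 0.534, 0.485 and 0.723 FPKM in Tshr-/- libraries 1 to 5 and 0.447, 0.804, 0.413, 0.382 and 0.762 in wild type. The 4 highest values were those of the 4 thalamus-rich libraries, 2 of each genotype. The log2 difference was 0.34 ± 0.27 (SE, limma adjusted p = 0.619), 0.08 without Tshr-/- libraries 1 and 2 and 0.11 with the thalamus markers as a covariate. Noncoding genes on the opposite strand overlap Shh (Gm26894 and 9530036O11Rik, at most 0.531 and 0.155 FPKM in any library). The library kit does not mark strand, so reads of Shh and of these genes cannot be told apart where they overlap.

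Of the 11 tested hedgehog pathway genes, 5 were higher and 6 lower in Tshr-/-, 0 were called by limma, and 1 had an unadjusted p below 0.05. That was Gli1, a target and transducer of the pathway, at 0.772 ± 0.215 FPKM against 0.443 ± 0.0926 (limma adjusted p = 0.275). Its Tshr-/- values were 0.723, 0.972, 0.791, 0.434 and 0.940 FPKM, and the wild-type values ran from 0.307 to 0.566. Tshr-/- library 4 lay inside the wild-type range and the other 4 above it. The wild-type mean of Gli1 lay below the filter of 0.5 FPKM, so it was tested only through its Tshr-/- values. Boc, a hedgehog coreceptor, had 3.31 ± 0.329 against 3.82 ± 0.463 FPKM (limma adjusted p = 0.413).

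Cell surface and metabolic genes complete the set. Itga7 (ENSMUSG00000025348, chromosome 10, 128933818 to 128958282, plus strand) encodes a laminin-binding integrin chain that pairs with Itgb1. It had 3.03, 3.36, 3.75, 5.26 and 3.15 FPKM in Tshr-/- libraries 1 to 5 and 5.32, 4.15, 4.98, 6.62 and 3.91 in wild type. The value of Tshr-/- library 4 exceeded 3 wild-type values, and the other 4 were below every wild-type value. The means were 3.71 ± 0.908 and 4.995 ± 1.08 FPKM, and the log2 difference was -0.42 ± 0.17 (SE, unadjusted p = 0.0311, limma adjusted p = 0.34). It was -0.55 without Tshr-/- library 4, -0.20 with the border macrophage marker Pf4 as a covariate and 0.12 with the dentate granule markers as one. Smooth muscle markers, a vascular group, summed to 21.3 to 37.2 FPKM in Tshr-/- and 24.2 to 42.0 in wild type, and their part in the result was not tested.

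Cbr2 (ENSMUSG00000025150, chromosome 11, 120729489 to 120732114, minus strand) encodes a carbonyl reductase and was the only one of the 10 with an unadjusted p below 0.05 that stood higher in Tshr-/-. It rested on few reads, 38, 38, 25, 37 and 15 in Tshr-/- libraries 1 to 5 and 14, 15, 11, 9 and 19 in wild type. In FPKM these were 0.976, 0.973, 0.716, 1.04 and 0.408 against 0.344, 0.336, 0.361, 0.273 and 0.575. The first 4 Tshr-/- libraries lay above all wild-type ones, and library 5 lay within their range. The means of 0.823 ± 0.263 and 0.378 ± 0.115 FPKM corresponded to a fitted log2 value of 0.92 ± 0.26 (SE, unadjusted p = 0.00505, limma adjusted p = 0.211). Cbr2 is also known from border macrophages and meninges.

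Border macrophage markers (7 genes, with Pf4 the highest and none at 0 throughout) summed to 4.03, 3.65, 2.63, 2.82 and 1.16 FPKM in Tshr-/- libraries 1 to 5 and 0.964, 1.38, 0.827, 0.958 and 2.46 in wild type. Cbr2 and this sum were both lowest of the Tshr-/- group in library 5 and both highest of the wild-type group in library 5. Meningeal markers (Igf2 the highest) summed to 50.3 FPKM in Tshr-/- library 4, the one rich in choroid plexus transcripts. They summed to 15.9 to 24.0 FPKM in the other Tshr-/- libraries and 9.50 to 23.4 in wild type. The log2 difference of Cbr2 was 0.52 with the meningeal markers as a covariate (limma adjusted p = 0.73). It was 0.53 with Pf4, the 1 border macrophage marker that passed the filter (limma adjusted p = 0.615).

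**Figure D3:**
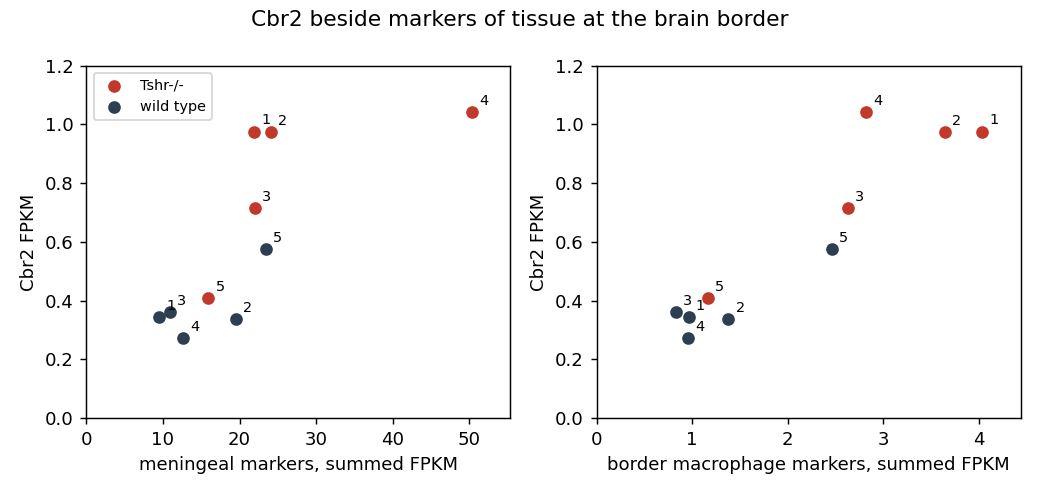
Cbr2 FPKM (vertical axes, from 0) against the summed FPKM of meningeal and of border macrophage markers (horizontal axes), with 1 numbered point per library in each genotype. The 4 libraries with the most Cbr2, at 0.716 to 1.04 FPKM, are Tshr-/- libraries 1 to 4, which also hold the 4 highest border macrophage sums.

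**Figure D4:**
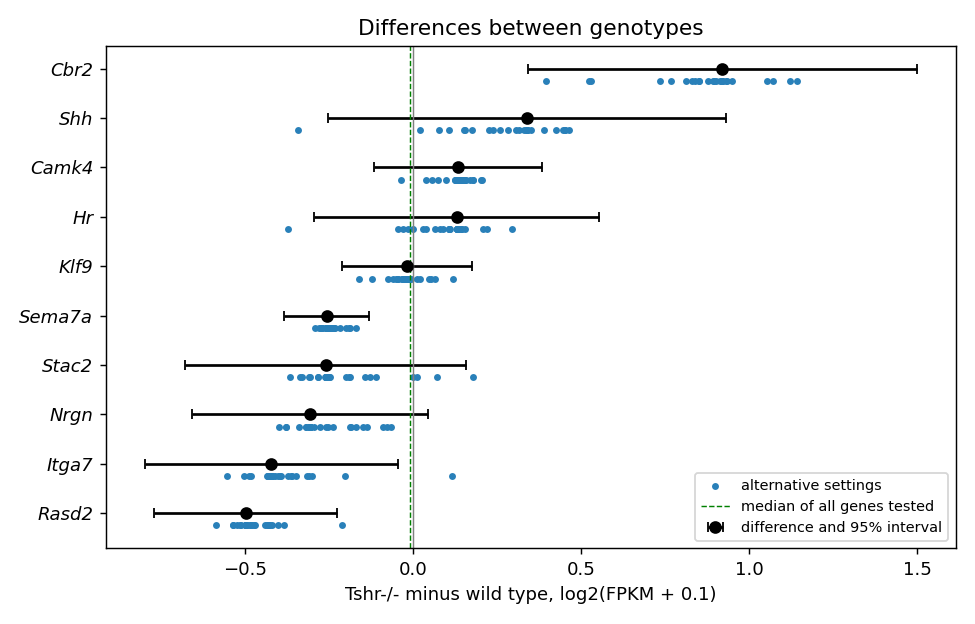
Log2 difference, Tshr-/- minus wild type, of each of the 10 genes with its 95% interval (black), its values under the alternative settings (blue) and the median of all genes tested (dashed green). Intervals of Rasd2, Sema7a, Itga7 and Cbr2 leave out 0 before adjustment for the 15471 tests, and blue points of Hr, Klf9, Stac2, Itga7, Shh and Camk4 lie on both sides of 0.

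Genes that bring thyroid hormone to its receptors were also not called. Of 8 transport and turnover genes tested, 4 were higher and 4 lower, with 0 called by limma and 1 at an unadjusted p below 0.05. That gene was Dio2, at 7.55, 6.56, 6.44, 6.65 and 5.11 FPKM in Tshr-/- libraries 1 to 5 and 7.42 to 7.82 in wild type. Only Tshr-/- library 1 reached the wild-type range (log2 difference -0.25 ± 0.09 SE, limma adjusted p = 0.278). Dio3, which inactivates the hormone, had 0.869 ± 0.425 against 1.12 ± 0.427 FPKM (limma adjusted p = 0.72). The amino acid transporter Slc7a8, which also carries thyroid hormone, had 19.0 ± 2.04 against 17.1 ± 1.47 FPKM (limma adjusted p = 0.481).

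Of 16 receptor, partner and cofactor genes, 5 were higher and 11 lower, with a median log2 difference of -0.08, 0 called by limma and 3 at an unadjusted p below 0.05 (1 higher, 2 lower). The receptor gene Thra had 226 ± 45.7 against 258 ± 34.5 FPKM (limma adjusted p = 0.554), and Thrb 4.62 ± 1.02 against 4.16 ± 0.403 (0.743). Tbl1x, a subunit of a corepressor complex, had 6.64 ± 0.582 against 5.75 ± 0.430 FPKM (0.303).

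Other genes described as raised by thyroid hormone were split in direction. Of 20 listed, 19 were tested, 8 were higher and 11 lower, with a median of -0.01, 0 called by limma and 7 at an unadjusted p below 0.05 (2 higher, 5 lower). Flywch2, a gene of the FLYWCH zinc finger family, did not overlap between the groups, with 7.62 to 10.5 FPKM in Tshr-/- and 5.80 to 7.20 in wild type (log2 difference 0.47 ± 0.09 SE, limma adjusted p = 0.129). Groups did not overlap for 1 gene of this list in each direction. Over all genes tested this held for 0.911% in the higher and 1.76% in the lower direction. The myelin gene Mbp had 289 ± 62.1 against 324 ± 66.7 FPKM (limma adjusted p = 0.722).

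Genes described as lowered by thyroid hormone stood mostly higher in Tshr-/-. Of 10 listed, 8 were tested, 6 were higher and 2 lower, with a median log2 difference of 0.28, 0 called by limma, and 4 higher and 2 lower at an unadjusted p below 0.05. The 2 lower genes, named after their values were seen, were Hapln1 and Dgkg. Hapln1 had 3.60 ± 0.332 FPKM in Tshr-/- against 4.14 ± 0.240 in wild type (limma adjusted p = 0.307). Dgkg had 26.1 ± 4.05 against 30.4 ± 2.37 FPKM (limma adjusted p = 0.369). In 4 of the 8 every Tshr-/- library lay above every wild-type library, which held for 0.911% of all genes tested. The list was written with earlier results of these data known, so setting this count against that share is not a test. Cirbp, a cold-inducible RNA-binding protein whose value was known when the list was written, had 26.7 to 33.0 FPKM against 19.8 to 21.7 (log2 difference 0.45 ± 0.06 SE, limma adjusted p = 0.0502), and 8 of 28 alternatives called it. Col6a2, a collagen VI chain, had 1.11, 0.787, 1.42, 0.753 and 1.89 FPKM in Tshr-/- libraries 1 to 5 and 0.322 to 0.651 in wild type (log2 difference 1.09 ± 0.26 SE, limma adjusted p = 0.175). The wild-type mean of Col6a2, 0.489 FPKM, lay below the filter of 0.5 FPKM, so it was tested only through its Tshr-/- values. The other 2 of the 4, Col6a1 and Marcksl1, were chosen after their values were seen. Col6a1, its partner chain, had 4.78, 3.34, 5.41, 3.13 and 8.65 FPKM against 1.65 to 2.91. Marcksl1, an actin-regulating kinase substrate, had 54.7 to 85.2 against 42.5 to 54.0 FPKM. Tshr-/- library 5 was the highest for all 4 of these genes. It also had the highest summed markers of neocortex (76.6 FPKM, against 32.4 to 62.0 in the other libraries) and of striatum (63.3 FPKM), and their part in these values was not tested.

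**Figure D5:**
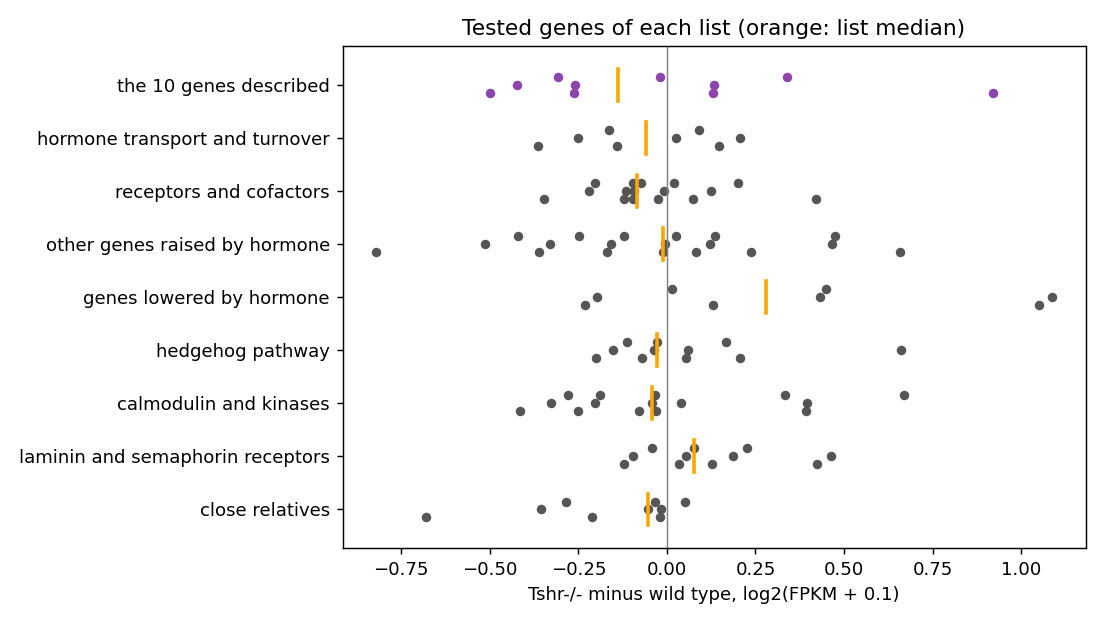
Log2 difference, Tshr-/- minus wild type, of each tested gene (points) in the 10 genes described and in 8 lists of related genes, with each list's median in orange. The median of the 10 genes is -0.14 and that of the genes lowered by hormone 0.28, against -0.01 over all 15471 genes tested. Genes and lists were chosen with earlier results of these data known, so setting these medians side by side is not a test.

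Partners and relatives of the 10 genes were read in the same fit. Of 15 calmodulin and calmodulin kinase genes, 5 were higher and 10 lower, with 0 called by limma and 6 at an unadjusted p below 0.05 (1 higher, 5 lower). Camkk1, a kinase that activates Camk4, had 48.0, 47.1, 66.1, 64.1 and 57.1 FPKM in Tshr-/- libraries 1 to 5 and 63.0 to 86.7 in wild type (log2 difference -0.42 ± 0.12 SE, limma adjusted p = 0.2). Camk1, another kinase downstream of Camkk1, had 7.23 ± 1.40 against 5.42 ± 0.483 FPKM (0.258).

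Of 11 tested laminin and semaphorin receptor genes and laminin chains, 8 were higher and 3 lower, with 0 called by limma and 2 at an unadjusted p below 0.05, both higher. These were Plxnc1 and Itga3, another laminin-binding integrin chain, at 5.74, 7.69, 3.82, 4.03 and 4.42 FPKM in Tshr-/- libraries 1 to 5 and 2.82 to 4.54 in wild type (limma adjusted p = 0.353). The 2 high Itga3 values were those of Tshr-/- libraries 1 and 2. Of 9 tested relatives, 1 was higher and 8 lower, with 0 called by limma and 3 at an unadjusted p below 0.05, all lower. They include Klf13, a relative of Klf9, at 28.3 ± 2.43 against 32.7 ± 2.58 FPKM (limma adjusted p = 0.282).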

How the data were processed

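The submitters' processing notes name HISAT2 2.0.5, featureCounts 1.5.0-p3 and the build mm10. The authors deposited FPKM values with gene lengths and coordinates. Annotation release and library sizes behind the FPKM are not given in the sources used here. After multiplying by gene length, 100% of values above 0 came out as whole reads (tolerance 0.01 of a read), and read numbers in the text are these. The labels name the NEBNext Ultra kit, which in its standard form does not mark strand.

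Genes with a mean of at least 0.5 FPKM were tested on log2(FPKM + 0.1) with limma 3.58.1 (R 4.3.3, statmod 1.5.0), with empirical Bayes moderation and a variance trend, over 15471 genes. The 0.1 FPKM added before the log2 step shrinks changes of low genes. The p-values set the difference between groups against the spread between these libraries. No member fell below the filter. It used the mean of all libraries, so some genes low in wild type, Cbr2, Gli1 and Col6a2 among them, were tested only through their Tshr-/- values. The fit was also run on simulated reads with known changes. That simulation used a fixed spread and no differences in tissue content, so it does not stand for the spread of these libraries. Lists are described by counts and medians.

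The members and lists were chosen with earlier results of these data known. Named are the 10 members, the 2 genes of smallest p in each pathway list, the most abundant tissue markers used, and Dio2, Dio3, Thra, Thrb and Mbp. Some genes that this rule names are not reported here.

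Alternatives changed the pseudocount, filter, scaling, variance model, weights, gene type, replicate block, libraries or tool (voom). Covariates for meninges, border macrophage and dentate granule markers were added after seeing the data. Read limits cover counting error only.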

Additional observations from a re-analysis of the deposited data

Results flagged for a closer look

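Klf9 in Tshr-/- library 4, at 51.8 FPKM, lay far below the other 4 Tshr-/- libraries, which were within 63.3 to 67.1 FPKM. Its gap to the next library passed Dixon's 95% critical value for 5 samples. This was 1 of 20 groups tested (10 genes in 2 genotypes), and chance flags about 1 in 20. The same library held 2620 FPKM of choroid plexus markers, and their part in the low Klf9 value was not tested.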

How the results depend on the processing

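None of the 10 genes was called under any of the 28 alternatives. Nrgn, Sema7a, Rasd2 and Cbr2 kept their direction in every alternative that tested them, with log2 differences from -0.40 to -0.07, -0.29 to -0.17, -0.59 to -0.21 and 0.39 to 1.14. A filter at a mean of 1 FPKM removed Cbr2 and Shh, and leaving out the 4 thalamus-rich libraries removed Shh.

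The count of called genes, 2 in the main analysis, was 14 with a pseudocount of 0.01, 13 with the filter at 1 FPKM, with median-ratio scaling or with robust moderation, 17 among protein-coding genes, 4 with no filter or with quantile normalization, 1 with no variance trend, 9 with voom and 8 with the thalamus covariate. It was 0 without Tshr-/- libraries 1 and 2 and with the meninges, border macrophage or dentate covariate, 3 without the 4 thalamus-rich libraries, and 0 to 9 with 1 library left out. The main calls were 0 higher and 2 lower in Tshr-/-, against 7 and 6 with median-ratio scaling, 2 and 2 with quantile normalization and 6 and 3 with voom. Of the pathway list genes, 0 in the main analysis, 2 were called with a pseudocount of 0.01, the filter at 1 FPKM, median-ratio scaling, robust moderation or protein-coding genes (Cirbp among them), 2 with the thalamus covariate (Nefh and Nefm), 1 with quantile normalization or voom (Cirbp), and 0 to 1 with 1 library left out. Where no construction shows it, the cause was not tested.

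Directions reversed as follows. Klf9 was 0.066 with quantile normalization, 0.052 with voom and 0.118 with the meninges covariate. Hr was -0.017 with the thalamus covariate, -0.046 without Tshr-/- libraries 1 and 2, 0 with the meninges covariate and -0.03 with the border macrophage covariate. Stac2 was 0.072 without Tshr-/- libraries 1 and 2 and 0.012 without the 4 thalamus-rich libraries. Thra was 0.007 with the border macrophage covariate. With the dentate covariate Hr was -0.374, Stac2 0.177, Itga7 0.115, Shh -0.342, Camk4 -0.036, Slc7a8 -0.058, Camk1 -0.032, Itga3 -0.062 and Thrb -0.165. With 1 library left out, Klf9 ran from -0.061 to 0.048.

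Same-numbered libraries did not deviate together (correlations from -0.07 to 0.30, with 2 of 5 Tshr-/- libraries closest to their own number). With the replicate number as a block, 3 genes were called, 0 of the 10 and 0 of the pathway lists.

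Cbr2 and Shh rest on 9 to 38 and 27 to 98 reads per library, which limits their precision.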
